A study of Homo sapiens with 12 samples.

Results

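Desmosomes and hemidesmosomes are the anchoring junctions of stratified and glandular epithelium. Desmosomal cadherins such as desmoglein bridge neighboring cells, and plakoglobin, plakophilins and desmoplakin tie the cadherin tails to keratin filaments. At the base of the cell, integrin α6β4 and collagen XVII bind laminin-332 in the basement membrane, and basal breast epithelial cells are known for this arrangement. Summits of EGFR-chimera ChIP-seq were examined at 9 genes of these junctions: *DSP* (desmoplakin), *JUP* (plakoglobin), *PKP1* (plakophilin) and *DSG3* (desmoglein) for the desmosome, *LAMA3* and *LAMB3* (laminin-332 chains), and *ITGA6*, *ITGB4* and *COL17A1* (the hemidesmosomal integrin chains and collagen XVII). These genes were chosen by their role in adhesion with the summits of these libraries already known, so their summit counts are descriptions and carry no test. Of 2186 summits in the 4 lists, 3 lay inside the limits of the 9 genes extended by 1000 bp on each side.

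All libraries came from B2B1, a single clone derived from MCF10A-5E, a nontransformed human breast epithelial line. The clone carries NGFR-EGFR-FRB with a GluGlu tag and NGFR-Erbb2-FKBP with an HA tag, and AP21967 (AP) joins the chimeras into heterodimers. Cells were kept for 7 days in overlay culture, in which the medium contains basement membrane extract, and received 0.5 µM AP (plus AP, 2 GluGlu libraries) or 0.1% ethanol (minus AP, 2 GluGlu libraries) for the last 24 h. The GluGlu antibody reports the tagged chimera and not the endogenous receptor, and the remaining 8 libraries of the series, from input and naive IgG, were not used here.

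Without AP the lists held 739 (replicate 1) and 56 (replicate 2) summits, and with AP they held 1094 and 297. A summit is the highest point of a peak, and its score is the −log10 of the q-value from the authors' peak calling. The score was used for ranks within a list and for the score minima of 2 and 3 in the alternative settings. Those minima were the same for all lists, although scores may not be comparable between lists. The methods of the study name input chromatin as the control for this q-value, whereas its results speak of naive IgG, and the lists do not settle which was used. Read depth is unknown, so that binding at a gene without a summit may have escaped detection. The replicate 1 lists differed in makeup from those of replicate 2, with 9.34% and 9.23% of their summits inside protein-coding genes against 76.8% and 79.1%. Summits do not measure expression and cannot check the epithelial identity of the cells. Of the basal markers looked up, *KRT5* had summits in all 4 libraries, *KRT14* in both replicate 1 libraries, and *KRT17* and *TP63* in none.

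Among the 9, only desmosomal genes had a summit (3 of 4), beside 1.3% of 20033 protein-coding genes in any library. The 9 genes were chosen with the summits known, and none of 12 further desmosomal genes had a summit. *DSP* had 1 summit in minus AP replicate 1, and *JUP* and *PKP1* had 1 each in plus AP replicate 2. *DSG3*, *LAMA3*, *LAMB3*, *ITGA6*, *ITGB4* and *COL17A1* had none in any of the 4 libraries, and no gene of the 9 had a summit in more than 1 library. The reference sequence at the 3 summits is shown because its composition differed between the start-proximal pair and the summit deep in *PKP1*. Each is written 5′ to 3′ on the strand of its gene with CpG dinucleotides in capitals. The *DSP* stretch (chr6:7541727-7541756, GRCh38, plus strand) is limited to 30 bases because it lies in an untranslated region, whereas the other stretches reach 50 bases to each side of the summit (*JUP*, chr17:41786314-41786414, minus strand, and *PKP1*, chr1:201308150-201308250, plus strand).
DSP summit: ccCGtCGcCGtctcCGCGctCGcagCGgcc
JUP summit: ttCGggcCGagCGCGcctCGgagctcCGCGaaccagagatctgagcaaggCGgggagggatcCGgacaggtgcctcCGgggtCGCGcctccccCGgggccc
PKP1 summit: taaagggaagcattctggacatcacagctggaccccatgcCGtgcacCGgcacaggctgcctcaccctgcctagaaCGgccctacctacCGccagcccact

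The desmoplakin gene *DSP*, whose product links desmosomes to intermediate filaments, occupies chromosome 6 from 7541338 to 7586714 (plus strand). Its summit in minus AP replicate 1 was at 7541742, in the 5′ UTR of exon 1 and 71 bp past the start of the canonical transcript ENST00000379802. The antisense noncoding gene *DSP-AS1* also covers this position, and ChIP does not distinguish the strands. The score of 2.88 ranked 607 of 739, a rank shared with 15 other summits of the list, and 82.0% of the summits in the list scored higher. The nearest summits in the other libraries were 65979073 bp away in minus AP replicate 2, 7169892 bp in plus AP replicate 1 and 2874348 bp in plus AP replicate 2. Thus, *DSP* had a low-ranking summit at its start in 1 library and nothing near it in the others.

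The plakoglobin gene *JUP*, which encodes an armadillo protein shared by desmosomes and adherens junctions, occupies chromosome 17 from 41754604 to 41786931 (minus strand). Its summit in plus AP replicate 2 was at 41786364 in intron 1, 347 bp past the start of the canonical transcript ENST00000393931. A shorter annotated transcript, ENST00000465293, starts 155 bp further into the gene. The score of 2.66 ranked 238 of 297, tied with 17 other summits, and 79.8% of the list scored higher. No summit of the other libraries lay within the gene, and the nearest were 97071 bp away in minus AP replicate 1, 175007 bp in plus AP replicate 1 and 1574972 bp in minus AP replicate 2. As with *DSP*, the *JUP* summit was near the start of the gene and low in its list.

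The plakophilin gene *PKP1*, whose armadillo-repeat product sits in the desmosomal plaque, occupies chromosome 1 from 201283452 to 201332993 (plus strand). Its summit in plus AP replicate 2 was at 201308200 in intron 2, 24694 bp past the start of the canonical transcript ENST00000367324 and 50.0% of the way along the gene. The nearest annotated transcript start of *PKP1* was 7992 bp away, so this summit was not at a known start. It had the highest rank of the 3, at 175 of 297 with a score of 3.61, although this was still below the list median of 4.38. In the other libraries the nearest summits were between 8120412 and 8120711 bp away, in or just before *MIR205HG*.

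**Figure D1:**
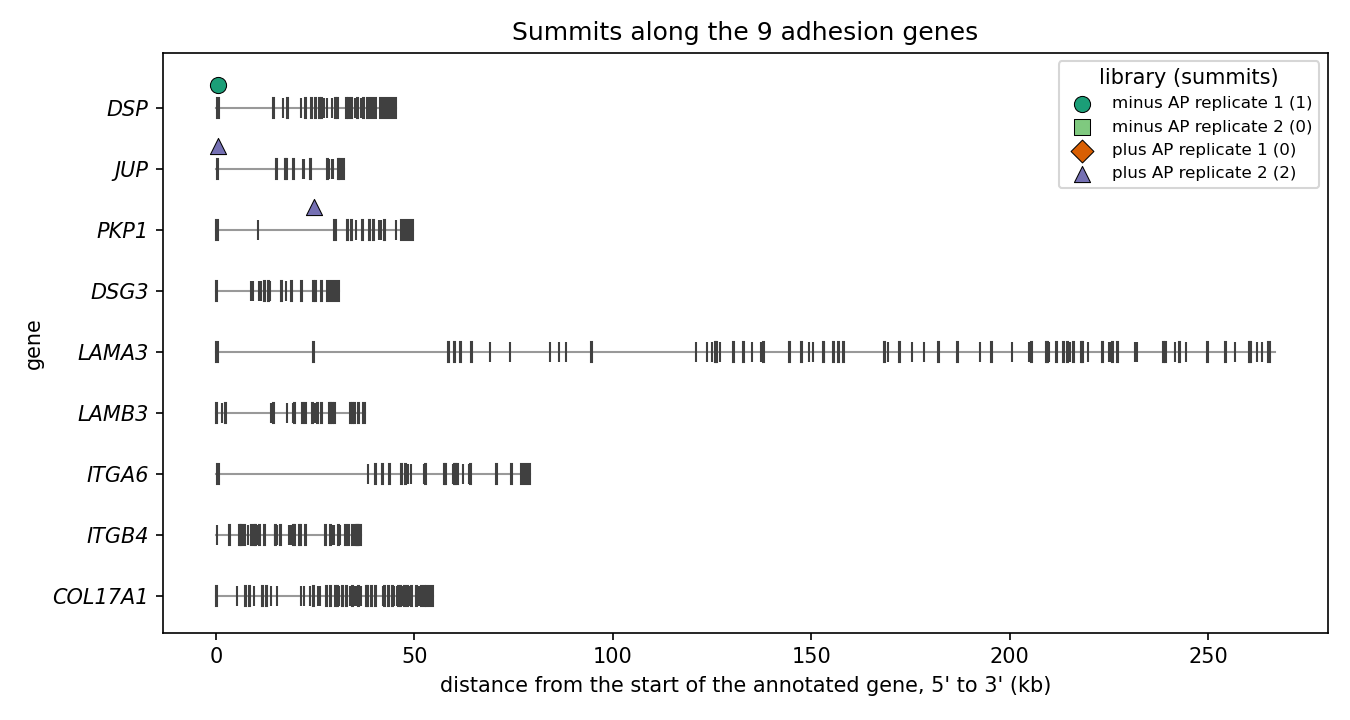
Positions of the summits along the 9 adhesion genes, with distance from the start of the annotated gene in kb on the x axis and 1 gene per line. Dark boxes are exons of the canonical transcript and colored symbols are summits of the 4 libraries. The summits of *DSP* and *JUP* lie at 0.9% and 1.8% of the length of the gene and that of *PKP1* at 50.0%, and the other 6 genes carry none.

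**Figure D2:**
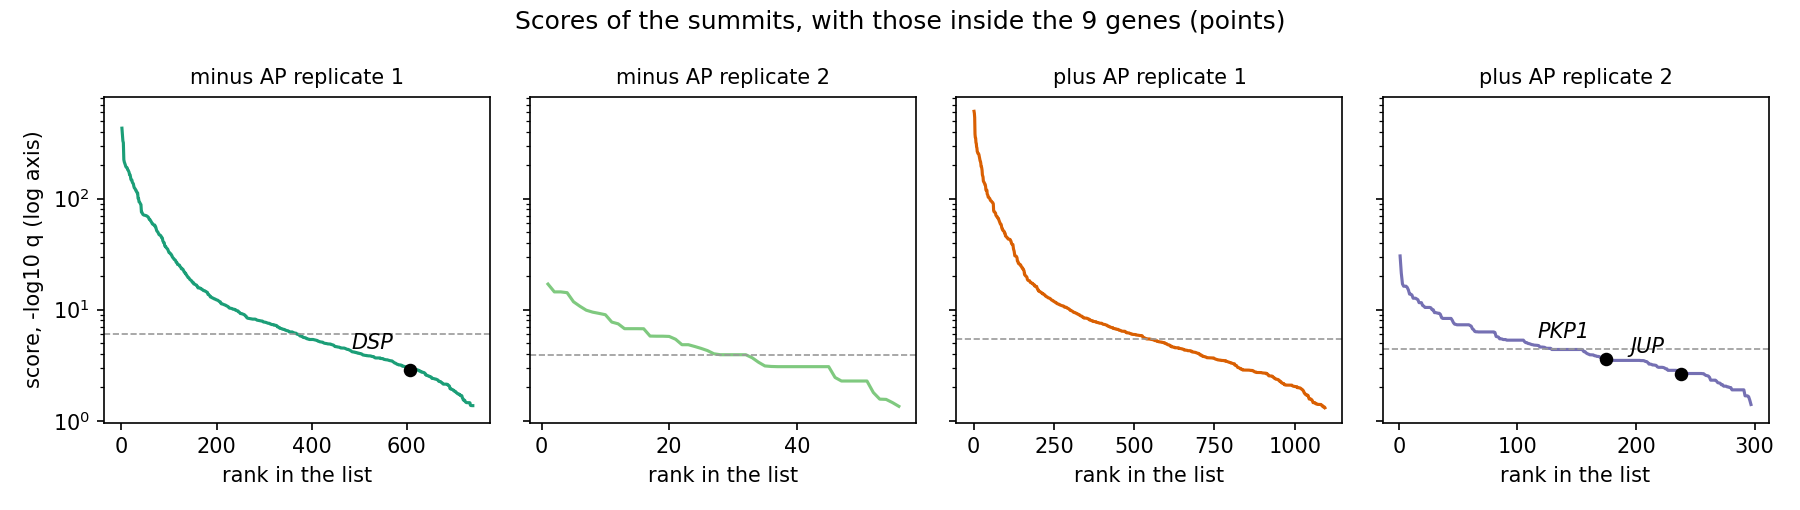
Score of each summit (−log10 q, log axis) against its rank in the list, 1 panel per library, with the list median as a dashed line and summits inside the 9 genes as points. *DSP* in minus AP replicate 1 and *PKP1* and *JUP* in plus AP replicate 2 all lie below the median of their list.

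Base composition differed among the 3 summits, of which those of *DSP* and *JUP* lay near a gene start and that of *PKP1* did not. Whether composition differed apart from this position was not tested. Within 50 bases of the *DSP* summit, 76.2% of bases were G or C and there were 15 CpG dinucleotides, against a median of 40.6% and 2 over all summits of minus AP replicate 1. Only 7 of the 739 summits in that list had a higher GC content. In that list 9.34% of summits lay inside protein-coding genes, so the comparison is mostly with sequence outside such genes. The *JUP* window held 75.2% G or C and 13 CpG, against medians of 51.5% and 4 in plus AP replicate 2, where 3.70% of summits had a higher GC content. The *PKP1* window was closer to the rest of that list, with 62.4% G or C and 4 CpG, and 27.9% of summits exceeded its GC content. All 427 75-bp sequences within 250 bp of each of the 3 summits occurred once in the genome.

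Motifs were searched on both strands of the same windows. The AP-1 motif TGANTCA, the GC box GGGCGG and the TATA box TATAAA had no match at any of the 3 summits. Among all summits of plus AP replicate 2, these motifs occurred in 2.02%, 13.1% and 7.41% of windows, and in minus AP replicate 1 in 0.812%, 2.71% and 7.85%. The KLF motif CACCC, which can overlap a longer GC-rich element, had 1 match, which began 12 bases past the *PKP1* summit. It occurred in 21.9% of windows of plus AP replicate 2 and in 12.9% of those of minus AP replicate 1.

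RefSeq promoters (GRCh38.p14, 250 bases before to 50 after the start) were matched for 8 of the 9 genes, all but *ITGB4*. None contained a summit. The *DSP* promoter ended just before the summit and was the richest in G and C of the 8, at 77.0% with 37 CpG and 8 GC box matches, and those of *JUP* (65.3%, 23 CpG) and *PKP1* (67.3%, 19 CpG) followed. The 5 matched genes without a summit ranged from 40.7% (*COL17A1*, 1 CpG) to 61.7% (*LAMA3*, 13 CpG). The genes were chosen with the summits known, and the *PKP1* summit lay 24694 bp from the canonical start. Nothing is therefore read from this order, and a link between promoter composition and summits was not tested. The median over 35116 RefSeq promoters was 58.7%, and 45.0% of them held a GC box. AP-1 motifs were found only in the *LAMA3* promoter, at the start of a shorter transcript (23873020 on chromosome 18), where there were 2. This motif occurred in 7.71% of all promoters, and the summit nearest to that start was 4901687 bp away.

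The genes without a summit differed in how far the nearest one lay. *ITGB4*, the integrin β4 chain that recruits plectin to hemidesmosomes, lies on chromosome 17 from 75721328 to 75757818 and had a summit 19.4 kb past its end in plus AP replicate 2, within the histone gene *H3-3B*. That summit ranked 238 of 297, tied with the *JUP* summit, and the nearest *ITGB4* summits of the other libraries were 3128.5 to 32353.2 kb away. *LAMB3*, the laminin β3 chain, lies on chromosome 1 from 209614870 to 209652425. Its nearest summit was 153.6 kb away in plus AP replicate 2 and between 181.5 and 182.0 kb in the other libraries, where it was the end of the *MIR205HG* locus. *LAMB3* was the only gene of the 9 with a summit within about 182 kb in every library, yet no summit touched the gene itself. That distance was taken from the *LAMB3* values. *JUP* had a summit within 143.2 kb in every library but minus AP replicate 2, where the nearest was 1574.4 kb away.

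The remaining genes were farther from any summit. *ITGA6*, the partner chain of integrin β4 (chromosome 2, 172427354 to 172506459), was 2675.2 kb from a summit in plus AP replicate 2 and about 50896 kb from those in both replicate 1 libraries. *DSG3*, a cadherin of basal keratinocytes (chromosome 18, 31447741 to 31478702), was 3594.1 kb from the nearest in plus AP replicate 1. *LAMA3*, the laminin α3 chain and the longest of the 9 genes at 266.8 kb (chromosome 18, 23689453 to 23956222), was 4718.1 kb from the nearest in the same library. Minus AP replicate 2 had no summit on chromosome 2 or 18. *COL17A1*, a transmembrane collagen (chromosome 10, 104031286 to 104085880), had the greatest distance to its nearest summit in any library, at 16168.6 kb in plus AP replicate 2 and 28536.7 to 31754.6 kb in the other libraries. In each single library another of the 9 genes was farther from a summit or had none on its chromosome.

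**Figure D3:**
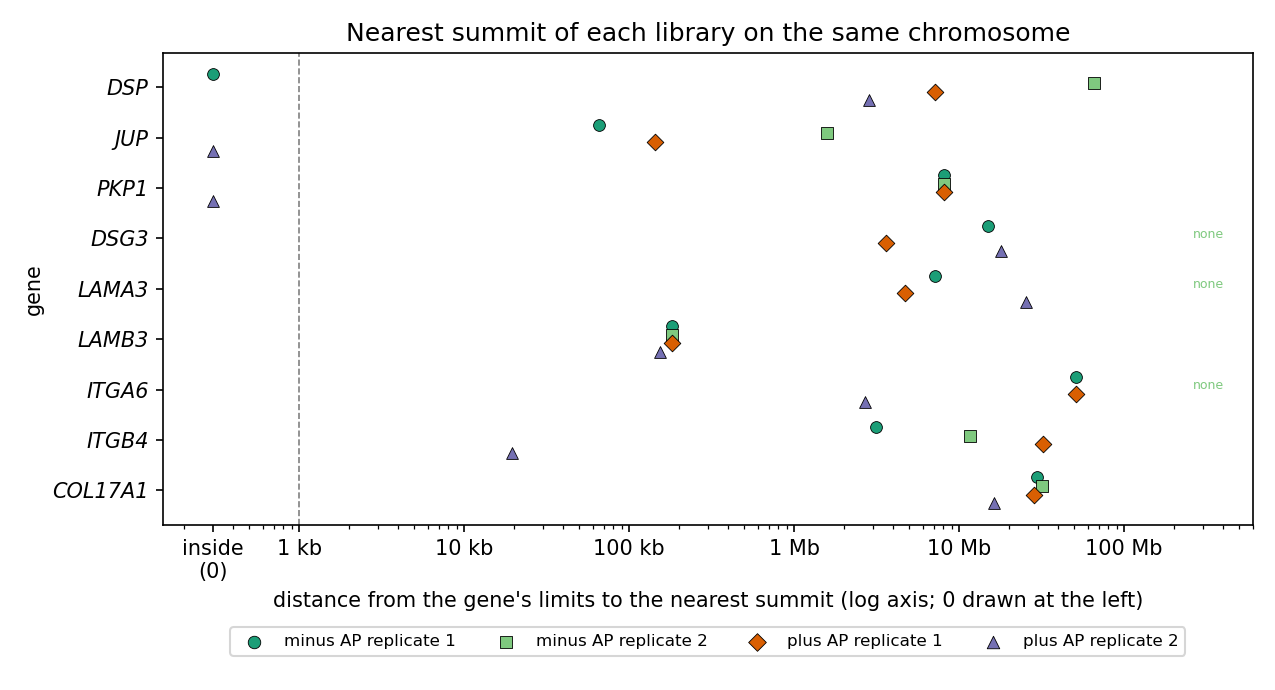
Distance from the limits of each of the 9 genes to the nearest summit on the same chromosome in each library (log axis, with summits inside a gene drawn at the left and the 1000-bp extension as a dashed line). "none" marks a chromosome with no summit in minus AP replicate 2, and the gap between the 3 genes with a summit and *ITGB4* at 19.4 kb is visible.

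Just outside the limits, no summit of any library lay between 1000 bp and 19.4 kb from any of the 9 genes. After *ITGB4*, the next were 22982 bp before the start of *PKP1* in plus AP replicate 2, inside no annotated gene and ranked 159 of 297, and 65.2 and 65.3 kb past the end of *JUP*, within the translation factor gene *EIF1*. The *EIF1* summit of plus AP replicate 2 ranked 49 of 297, and that of minus AP replicate 1 ranked 607 of 739.

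By condition, the number of the 9 genes with a summit was 1 and 0 in the minus AP replicates (0.5 ± 0.707, SD, n = 2) and 0 and 2 in the plus AP replicates (1.0 ± 1.414, SD, n = 2). The ranges overlapped. Between the replicate 1 libraries the number went from 1 without AP to 0 with AP. Between the replicate 2 libraries it went from 0 to 2, in the opposite direction. The labels do not say whether libraries of equal replicate number were paired across conditions. Over all protein-coding genes, those with a summit numbered 35 without AP and 64 with AP in replicate 1, and 32 and 225 in replicate 2. With 2 libraries per condition, an unpaired exact two-sided permutation test cannot give a p below 0.333, so none was run. With only summits of score 3 or more, *PKP1* alone remained, and without plus AP replicate 2, *DSP* alone. No gene recurred in both libraries of either condition. As background, 0.0899% of 20033 protein-coding genes recurred without AP and 0.180% with AP. At least 1 summit was present in 0.175% (replicate 1) and 0.160% (replicate 2) of protein-coding genes without AP, in 0.319% and 1.12% with AP, and in 1.3% in any library. Since the 9 genes were selected with the summits known, nothing is read from their 3 of 9 against this share.

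As a share of each list, the summits inside the 9 genes were 0.135% in minus AP replicate 1 (1 of 739, exact 95% interval 0.00343 to 0.752%) and 0.673% in plus AP replicate 2 (2 of 297, 0.0817 to 2.41%). The 0 of 56 in minus AP replicate 2 allows up to 5.36% by the rule of 3 counts, and the 0 of 1094 in plus AP replicate 1 allows up to 0.274% (exact upper limits 6.38% and 0.337%). The rule of 3 bounds only the upper side at 95%, whereas the exact limits are upper ends of 95% intervals bounded on both sides. These bounds cover only the counting error of independent summits, although summits cluster in genes such as *KRT5*. They are given as a description, since the genes were chosen with the summits known.

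Presence in a single library was common in 1 list and rare in another. Of the 225 protein-coding genes with a summit in plus AP replicate 2, 177 (78.7%) had none elsewhere, as *JUP* and *PKP1* did. Of the 35 genes in minus AP replicate 1, only 3 had none elsewhere, and these were *DSP*, *FOXO1* and *MUC12*, the last pair named after their values were seen. Over all libraries, 188 of the 261 genes with a summit had exactly 1, as had each of the 3 desmosomal genes. The 9 genes were longer than most, with a median of 45.4 kb against 27.5 kb for protein-coding genes and 20.6 kb for those with a summit.

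Other genes of epithelial adhesion were looked up from lists that were also set with earlier results known. Among 12 further desmosomal genes, which included the remaining desmogleins, the desmocollins (*DSC1*, *DSC2*, *DSC3*), *PKP2*, *PKP3*, *PKP4*, *PERP*, *PPL* and *EVPL*, none had a summit. Neither did 11 further integrins, 8 basement membrane genes, 10 adherens junction genes or 9 tight junction genes. The 10 further laminin genes gave 1, *LAMA5*, which encodes the α chain of laminins in most adult basement membranes. The 4 further hemidesmosome and anchoring fibril genes gave *DST* and *CD151*, but not *PLEC* or *COL7A1*. In all, 3 of 64 (4.69%) of these genes had a summit in any library, each 1 summit in 1 library, beside 261 of 20033 protein-coding genes (1.3%). The lists were set with the summits known, so nothing is read from this difference.

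*LAMA5* (chromosome 20, 62307955 to 62367312, minus strand) had its summit at 62367137 in minus AP replicate 2, in the coding part of exon 1 and 175 bp past the canonical start. It ranked 25 of 56 (42.9% of that list scored higher), and its window held 79.2% G or C and 14 CpG, as at *DSP* and *JUP*. *DST*, which encodes dystonin, the plakin that ties hemidesmosomes to keratin filaments in its epithelial form, spans 496.8 kb of chromosome 6. Its summit in plus AP replicate 2, at 56642597, ranked 30 of 297, and 9.8% of that list scored higher. It lay in intron 15 of the canonical transcript and 191 bp from the start of another annotated transcript, ENST00000439203. Unlike that of *LAMA5*, its window held 42.6% G or C and 0 CpG. *CD151*, a tetraspanin partner of laminin-binding integrins on chromosome 11, had a summit at 838574 in the 3′ UTR in plus AP replicate 2, ranked 238 of 297. Its window held 67.3% G or C and 0 CpG. The gene *POLR2L* also covers this position, so the summit cannot be assigned to *CD151* alone.

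Keratins are the filaments to which both junctions attach. Of 8 basal and stress keratin genes looked up, 4 had a summit, beside 261 of 20033 protein-coding genes (1.3%) in any library. Of these keratin genes, 3 had one in 2 or more libraries. This list was also set with earlier results known, so nothing is read from the difference. *KRT15*, *KRT17*, *KRT6B* and *KRT6C* had none. Only *KRT5* of these recurred in both libraries of a condition, beside the 0.0899% (without AP) and 0.180% (with AP) of protein-coding genes given above. *KRT5* had 6 and 3 summits in the replicates without AP and 8 and 6 in those with AP. *KRT14*, which encodes its partner keratin, had 4 in each replicate 1 library and none in either replicate 2 library. *KRT6A* had 1 in minus AP replicate 1 and 1 in plus AP replicate 2, and *KRT16* had 1 in plus AP replicate 1. Each keratin gene with a summit is 4.6 to 6.1 kb long, whereas the shortest of the 9 adhesion genes is 31.0 kb. Around 2 *KRT14* summits, 15 and 106 of the 427 75-bp sequences occurred elsewhere in the genome, whereas none did around the other *KRT14* summits or those of *KRT5*, *KRT6A* and *KRT16*.

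**Figure D4:**
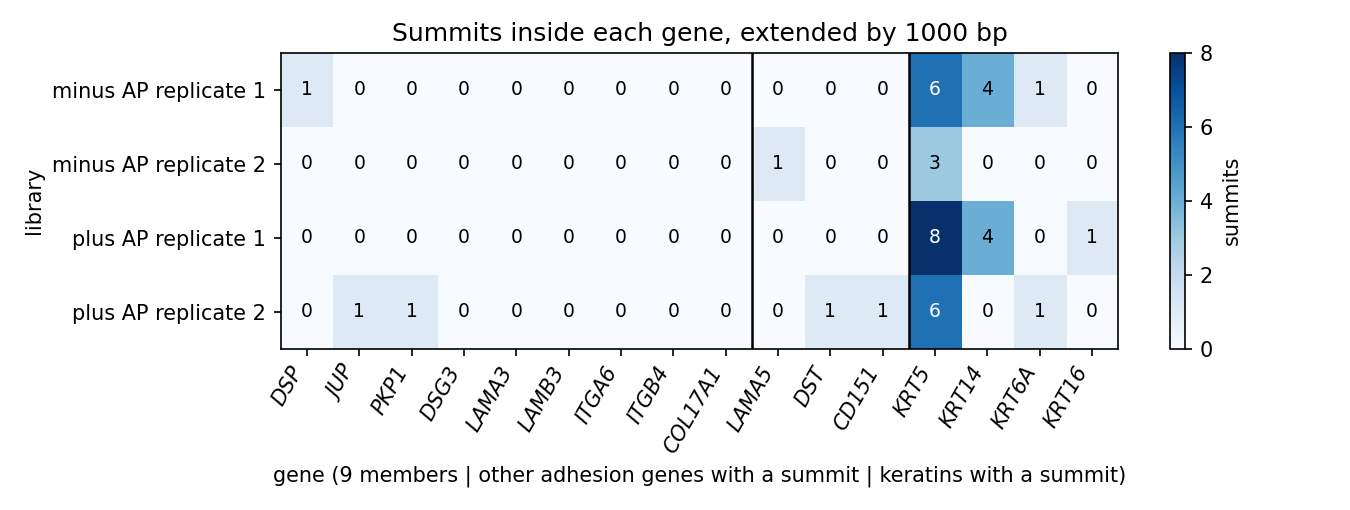
Number of summits inside each gene extended by 1000 bp, with the 4 libraries as rows and genes as columns, grouped into the 9 adhesion genes, other adhesion genes with a summit and keratins with a summit. The adhesion genes hold at most 1 summit in a library, whereas *KRT5* holds 3 to 8 in each.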

How the data were processed

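Summit lists of 4 GluGlu ChIP-seq libraries from B2B1 cells were analysed. Per the methods of the study, the authors aligned 75-bp read pairs to GRCh38 with Bowtie2 2.2.9, retained unique, non-duplicate alignments, and ran MACS2 2.2.7.1 on each library with input chromatin as control, although the study's results name naive IgG. The deposited score is the −log10 of the MACS2 q-value, and the authors' lists hold only summits past a q-value of 0.05. Libraries were mapped to conditions by sample titles and peak names. The annotation was GENCODE 44 on GRCh38, and all 2186 summits fell on contigs of the GRCh38 reference sequence and within their lengths. Protein-coding genes on chromosomes 1 to 22, X and Y (n = 20033) gave the background, so a summit on any other contig counted as outside genes. Computations used Python 3.11.15, numpy 2.4.6, pandas 2.3.3, scipy 1.17.1, numba 0.67.0, samtools 1.23.1 and matplotlib 3.10.9, and gene counts were checked on simulated summits. Genes and lists were chosen with earlier results of these data known. Values were given by rule for the 9 members, every listed gene with a summit, and genes at summits within 100000 bp of a member. Listed genes without a summit and the basal markers were named as such, and *FOXO1*, *MUC12*, *MIR205HG* and *POLR2L* were named after their values were seen. Repeated sequence was counted as exact 75-bp copies without alternate haplotypes. Alternatives changed gene limits, score minimum, list length and libraries.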

Additional observations from a re-analysis of the deposited data

How the results depend on the processing

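Of 60 values recomputed under the alternative settings, 53 were within 1.5 times the reported one. Many of these were counts of 0 that stayed at 0 and were scored as unchanged, so this share does not measure stability. With extensions of 0, 5000 or 10000 bp, canonical transcript limits or a score of at least 2, the number of the 9 genes with a summit stayed at 3. At 50000 bp it was 4, with *ITGB4* added. With a score of at least 3, only *PKP1* was left, so that the number was 1 over the 4 libraries, 0 in minus AP replicate 1 and 1 in plus AP replicate 2. Among the 56 highest-scoring summits of each list, it was 0 over the 4 libraries, 0 in minus AP replicate 1 and 0 in plus AP replicate 2, since fewer summits were kept. Leaving out a library gave 1 to 3 genes, with 1 (*DSP*) without plus AP replicate 2 and 2 (*JUP* and *PKP1*) without minus AP replicate 1. No gene recurred in either condition under any setting that kept both of its libraries. No paired analysis was possible because the results come from no test across samples; the report gives the counts within each replicate number. Depth is unknown, and 2 libraries per condition and the absence of a control immunoprecipitate from what was analysed here limit these counts.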
